A study of Mus musculus with 7 samples.

Results

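Transcripts of 9 enzyme genes of drug and xenobiotic handling were followed in C2C12 myotubes with and without electrical pulse stimulation (EPS): the carboxylesterases Ces2c, Ces2e, Ces2g and Ces1d, the epoxide hydrolase Ephx1, the dehydrogenase Ugdh and the UDP-glucuronosyltransferases Ugt1a6a, Ugt1a6b and Ugt1a7c. They are 9 of the 26607 genes listed with a value, found by their exact symbols, and none was missing. The 9 genes were chosen by their function together with their measured difference between the EPS and control groups. Their fold changes are therefore a description and carry no p-value. Of the 9, 8 had at least 1 read in some library, 4 had a mean of at least 1 CPM, the reads of a gene scaled to the same library total,, and Ces1d had 0 reads in every library.

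C2C12 is an established line of mouse muscle precursor cells that form multinucleated myotubes in low serum. The control group held 3 libraries of unstimulated myotubes (replicates 1, 3 and 4) and the EPS group 4 libraries (replicates 1 to 4) of myotubes pulsed at 1 Hz for 24 h and rested for 1 h. Both groups came from the same line, differentiated in 2% serum, with EPS begun at 3 days. The sources used here do not say that the libraries came from separate cultures, so the spread within a group may be technical. Neither group carried a named genetic change. A single cultured line holds none of the nerves, vessels or liver that act on these enzymes in an animal.

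Carboxylesterases split ester bonds in drugs and lipids, and microsomal epoxide hydrolase opens reactive epoxides into diols. UDP-glucuronosyltransferases then join glucuronic acid to phenols and other small molecules so that these can be exported, using UDP-glucuronic acid that Ugdh makes from UDP-glucose. These enzymes are best known from liver and gut, where the aryl hydrocarbon receptor (AHR) and NRF2 are known to raise several of them.

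Library totals were 16616917 to 22120641 reads in the control and 18830229 to 21892568 in the EPS group. The smallest level taken as above 0, 3 reads, was 0.136 to 0.181 CPM. This floor, like each interval below, covers counting error only, since PCR can copy 1 molecule many times. Control replicate 4 stood apart: only 359 of its genes held 1 to 5 reads, while the other 6 libraries each had 2670 to 3181 such genes. It had 0 reads of Ces2c, Ugt1a6b and Ugt1a7c, and values of these genes are given with and without it. All 8 skeletal myotube markers were expressed. Des had the highest mean over all libraries, and Acta1 the highest in the EPS group (2970 CPM, against 2910 CPM for Des). Of 7 hepatocyte markers, 5 were at 0 in every library and the others had at most 1 read. Of the enterocyte markers, Fabp2 and Sis were at 0. The 5 markers summed to 0 to 0.963 CPM in the control and 1.3 to 1.6 CPM in the EPS group. The sum of 0 was that of control replicate 4, where few genes had 1 to 5 reads. Cdh17 made up most of the sum in each EPS library.

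In all, 5 of the 9 genes, Ephx1, Ugt1a6a, Ugt1a6b, Ugt1a7c and Ces2c, were higher in every EPS library than in any control library. Over all 19144 genes tested, 7.76% had that pattern. Ugdh and Ces2g overlapped between the groups, and Ces2e and Ces1d were at or next to 0. At the thresholds used in the study's results, an unadjusted P under 0.01 in limma and more than 2-fold, 2 members (Ephx1 and Ugt1a6a) passed in the higher direction and 0 in the lower, where 0.966% of all tested genes were called higher and 0.439% lower. By a limma adjusted p under 0.05, 0 members and 0.141% of tested genes were called, while 5 members, and 11.6% of all tested genes, had an unadjusted p under 0.05. On reads recovered from the CPM, 2 members passed an adjusted p of 0.05 in edgeR, as did 1.51% of all genes, and 4 in DESeq2, as did 3.39% of the genes it gave an adjusted p. Because the members were chosen with this contrast known, nothing is read from these counts. In bulk RNA, fewer cells that express a gene and less of its RNA per cell cannot be told apart.

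**Figure D1:**
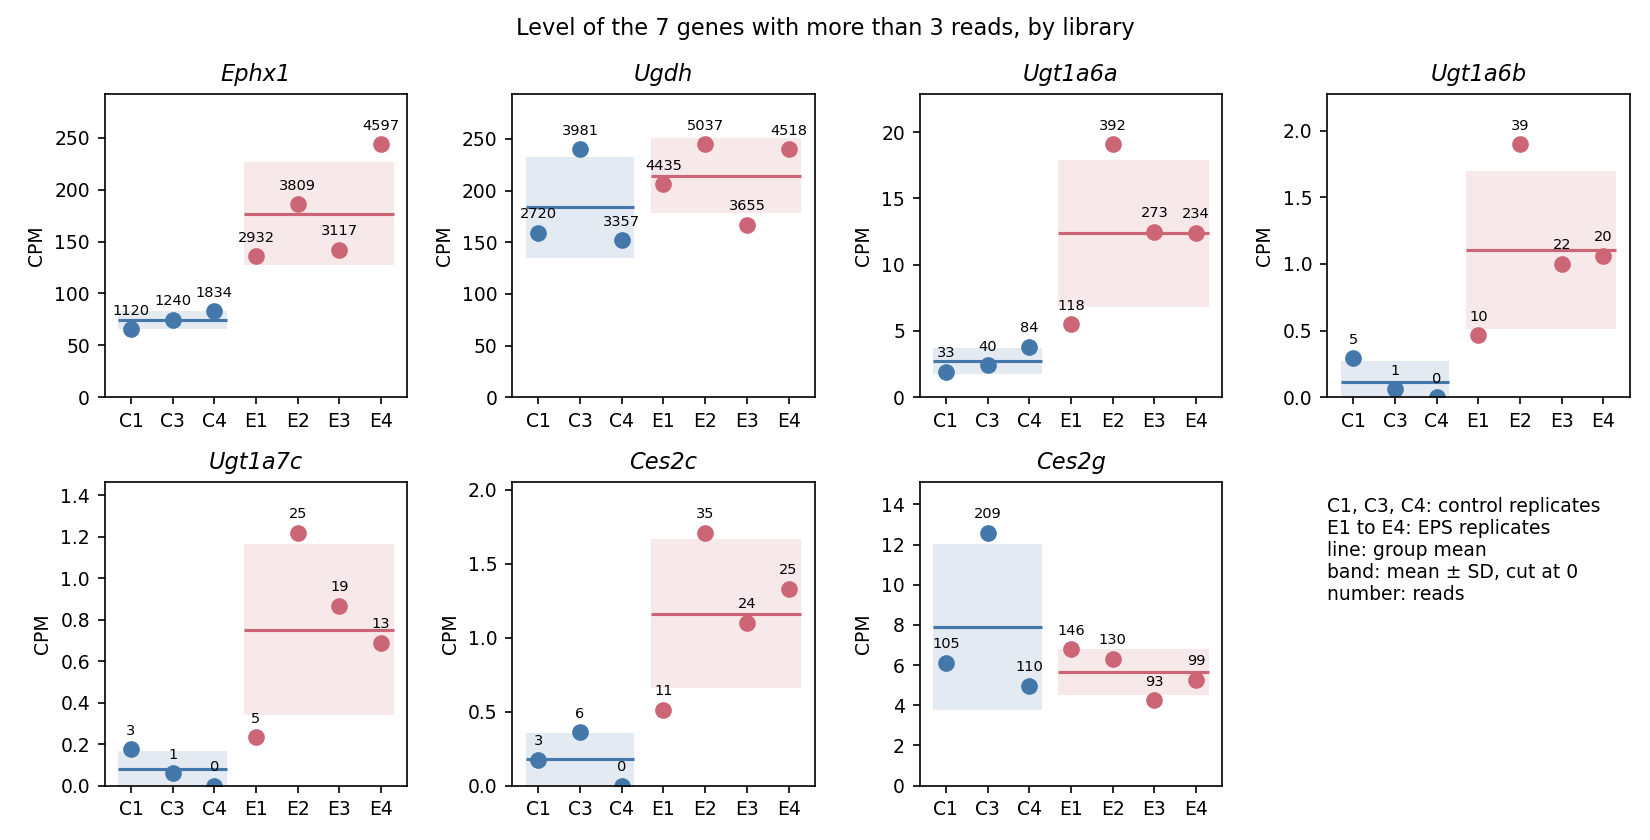
CPM of each gene (vertical axis, linear, from 0) in the control (blue, C1, C3, C4) and EPS (red, E1 to E4) libraries, with the reads above each point, the group mean as a line and mean ± SD as a band. Ephx1, the 3 Ugt1a genes and Ces2c lay higher in every EPS library, whereas Ugdh and Ces2g overlapped.

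Among the carboxylesterases, Ces2g was the most abundant in unstimulated myotubes, and Ces2c was higher in the EPS group. Ces2c, Ces2e and Ces2g are neighbours on chromosome 8 of GRCm38, on the plus strand (Ces2c, ENSMUSG00000061825.10, 104847068 to 104854483, Ces2e, ENSMUSG00000031886.14, 104926260 to 104934672, and Ces2g, ENSMUSG00000031877.9, 104961718 to 104969537, in GENCODE M21), each with 12 exons. Ces2c was at 0.175, 0.361 and 0 CPM in control replicates 1, 3 and 4 (3, 6 and 0 reads). In EPS replicates 1 to 4 it was at 0.512, 1.71, 1.1 and 1.33 CPM (11, 35, 24 and 25 reads). All 4 EPS libraries lay above the highest control library, with EPS replicate 1 closest to it. The means were 0.179 ± 0.181 CPM (SD, n = 3) and 1.16 ± 0.5 CPM (SD, n = 4). This control mean was just under the highest control floor, 0.181 CPM, and the EPS mean was 6.43 times that floor. That is not a lower bound of the fold, since control replicate 3, at 0.361 CPM, was above the floor. Without control replicate 4 the control mean was above the floor, and the ratio of means was lower, at 4.33. On the log2(CPM + 1) scale, which shrinks the change of low genes, the log2 fold change was 0.85 (standard error 0.20).

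Ces2g showed the opposite order of means but no separation of the groups. Its level was 6.12, 12.6 and 4.97 CPM in the control libraries and 6.8, 6.33, 4.25 and 5.26 CPM in the EPS libraries. Control replicate 3 alone was high, at 209 reads, and the other 6 libraries lay between 93 and 146 reads. The means were 7.89 ± 4.1 CPM (SD, n = 3) and 5.66 ± 1.14 CPM (SD, n = 4), with a log2 fold change of -0.34 (standard error 0.33). Without control replicate 3 it was 0.013, and without control replicate 4 it was -0.58.

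The balance between Ces2c and Ces2g differed between libraries. Ces2c made up 2.78%, 2.79% and 0% of the reads on both genes in the control libraries (replicates 1, 3 and 4). It made up 7.01% in EPS replicate 1 and 20.2 to 21.2% in the other EPS libraries. With the reads of each group added, the share was 2.08% in the control (exact Clopper-Pearson 95% interval 0.955 to 3.91), 2.79% without control replicate 4 (1.28 to 5.22), and 16.9% in the EPS group (13.9 to 20.2). EPS replicate 1, at 3.55 to 12.2%, was below the intervals of the other EPS libraries. The coding sequences of Ces2c and Ces2g are 85.2% identical, but no stretch of 100 bases of the Ces2g transcript recurs in another gene. Of the Ces2c transcript, 16% of the 100-base stretches recur in Ces2d-ps, Gm8798 or Gm6831, and Ces2d-ps, a pseudogene, had 5, 7 and 0 reads in the control and 9, 18, 10 and 2 in the EPS libraries. Whether reads were passed between these genes was not tested.

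The other carboxylesterases listed were nearly silent. Ces2e had 1 read in all, in EPS replicate 4 (0.0531 CPM), so no fold is given. Ces1d, on the minus strand of chromosome 8 (93166068 to 93197838, 14 exons) and known for lipid hydrolysis in liver and fat, had 0 reads in each of the 7 libraries. A count of 0 allows up to 0.137 to 0.181 CPM in the 6 libraries other than control replicate 4. No limit is given for that library, where few genes had 1 to 5 reads.

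Ephx1 (ENSMUSG00000038776.13), microsomal epoxide hydrolase, was the most abundant of the genes that separated the groups. It lies on the minus strand of chromosome 1 (180976210 to 181020904, 9 exons), and none of its 100-base stretches recurs in another gene. Its level was 65.3, 74.6 and 82.9 CPM in the control libraries and 136, 186, 142 and 244 CPM in the EPS libraries, each in replicate order. Every EPS library was well above the control libraries, which lay close together. The reads behind these values were 1120 to 1834 in the control and 2932 to 4597 in the EPS libraries. The means were 74.3 ± 8.81 CPM (SD, n = 3) and 177 ± 49.7 CPM (SD, n = 4), a ratio of 2.38 and a log2 fold change of 1.21 (standard error 0.22). Leaving out 1 library at a time gave 1.04 (without EPS replicate 4) to 1.32 (without EPS replicate 1).

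Ugdh (ENSMUSG00000029201.14) supplies the sugar donor of every glucuronidation reaction, and it was high in both groups. It lies on the minus strand of chromosome 5 (65413221 to 65435949, 12 exons). Its level was 159, 240 and 152 CPM in the control libraries and 206, 245, 167 and 240 CPM in the EPS libraries. Control replicate 3 was as high as EPS replicates 2 and 4, so the groups overlapped. The means were 183 ± 48.9 CPM (SD, n = 3) and 215 ± 36.2 CPM (SD, n = 4), a ratio of 1.17. The log2 fold change was 0.24 (standard error 0.21). It ran from 0.12 without control replicate 4 to 0.45 without control replicate 3.

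The 3 glucuronosyltransferases that use this donor come from 1 gene complex. Ugt1a6a (ENSMUSG00000054545.17), Ugt1a6b (ENSMUSG00000090145.7) and Ugt1a7c (ENSMUSG00000090124.7) begin at separate first exons on the plus strand of chromosome 1 (GRCm38 starts 88134809, 88103252 and 88095062) and splice to the same later exons, at 88215044 to 88215175, 88215795 to 88215882, 88216138 to 88216357 and from 88218127. The separate exons encode the part of the enzyme that binds the substrate, and the shared exons the part that binds the donor. Ugt1a6a, a transferase known for small planar phenols, was at 1.92, 2.41 and 3.8 CPM in the control libraries (33, 40 and 84 reads). In EPS replicates 1 to 4 it was at 5.49, 19.1, 12.5 and 12.4 CPM (118, 392, 273 and 234 reads). All EPS libraries were above the control, with replicate 1 lowest and replicate 2 highest. The means were 2.71 ± 0.973 CPM (SD, n = 3) and 12.4 ± 5.55 CPM (SD, n = 4), a ratio of 4.57. The log2 fold change was 1.77 (standard error 0.39), and ran from 1.54 (without EPS replicate 2) to 2.08 (without EPS replicate 1).

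Ugt1a6b, the close copy of Ugt1a6a, was at 0.292, 0.0602 and 0 CPM in the control (5, 1 and 0 reads) and 0.465, 1.9, 1 and 1.06 CPM in the EPS libraries (10, 39, 22 and 20 reads). Its EPS libraries had the same lowest and highest replicate as those of Ugt1a6a. The means were 0.117 ± 0.154 CPM (SD, n = 3) and 1.11 ± 0.592 CPM (SD, n = 4) on 6 control reads in all. This control mean was under the highest control floor, 0.181 CPM, and the EPS mean was 6.14 times that floor. That is not a lower bound of the fold, since control replicate 1, at 0.292 CPM, was above the floor. Without control replicate 4 the ratio of means was 6.3, on the same 6 control reads. Its log2(CPM + 1) fold change was 0.88 (standard error 0.21). Ugt1a7c was at 0.175, 0.0602 and 0 CPM in the control (3, 1 and 0 reads) and 0.233, 1.22, 0.868 and 0.69 CPM in the EPS libraries (5, 25, 19 and 13 reads). No control library exceeded 3 reads, so Ugt1a7c is given as at least 4.17-fold higher, against 0.181 CPM, the highest of the 3-read floors of the control libraries. On the log2(CPM + 1) scale its fold change was 0.67 (standard error 0.18). EPS replicate 1, with 5 reads, was barely above control replicate 1, with 3.

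These 3 genes share so much sequence that the way reads were assigned matters. Of the 100-base stretches in the transcript, 71.4% of Ugt1a6a, 71.5% of Ugt1a6b and 39.5% of Ugt1a7c recur in another gene, mostly in the common exons. In the models of Ugt1a6a and Ugt1a6b, a short exon of 127 bases comes before the coding exon of their own. Over the coding bases outside the shared exons, Ugt1a6a and Ugt1a6b are 97% identical, with 26 differences in 858 bases and runs of up to 251 bases with none, whereas Ugt1a6a and Ugt1a7c are 57.5% identical. The stretch where the close pair differs most is shown because only such bases can tell their reads apart. It lies in the second exon of each transcript model, at chr1:88138769-88138828 for Ugt1a6a and chr1:88107237-88107296 for Ugt1a6b (GRCm38, plus strand, 5′ to 3′), and capitals mark the 9 differing bases.
Ugt1a6a: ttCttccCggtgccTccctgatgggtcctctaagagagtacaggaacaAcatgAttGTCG
Ugt1a6b: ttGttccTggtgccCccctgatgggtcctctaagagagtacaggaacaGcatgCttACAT
The differences are few and clustered, with a run of like bases between them.

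The share of Ugt1a6b in the reads of Ugt1a6a and Ugt1a6b was nearly constant in the EPS group, at 7.81%, 9.05%, 7.46% and 7.87% in replicates 1 to 4, although the total differed between those libraries. With reads added by group it was 8.21% (exact 95% interval 6.66 to 9.99) in the EPS and 3.68% (1.36 to 7.84) in the control group, where it rests on 6 reads. The single control libraries had 13.2%, 2.44% and 0%, and without control replicate 4 the control share was 7.59% (2.84 to 15.8). The share of Ugt1a7c, counted likewise beside Ugt1a6a, was 5.75% (4.43 to 7.31) in the EPS and 2.48% (0.681 to 6.24) in the control group, or 5.19% (1.43 to 12.8) without control replicate 4. For both genes, the intervals of the groups overlapped. Whether the low genes received reads of Ugt1a6a was not tested. The other Ugt1a genes listed, which end in the same exons, had at most 2 reads in any library.

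**Figure D2:**
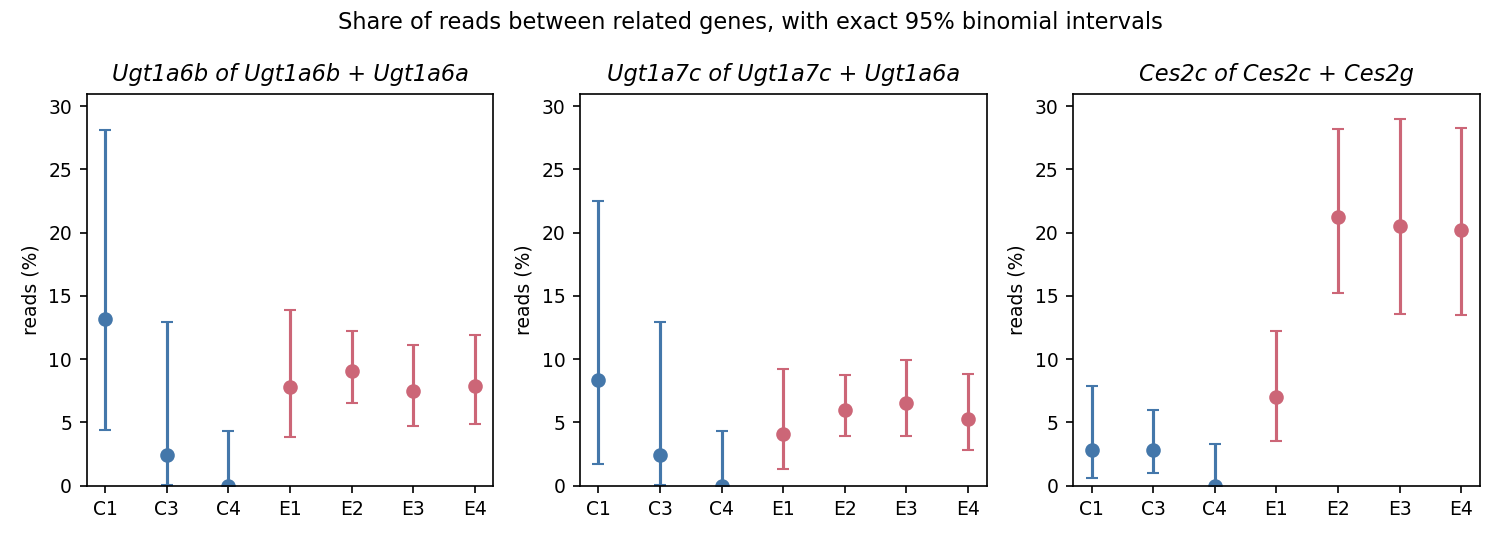
Share of reads (percent, vertical axis) that the first gene holds of the pair named above each panel, in the control (blue) and EPS (red) libraries, with exact Clopper-Pearson 95% intervals. Ugt1a6b stayed between 7.46% and 9.05% in the EPS libraries, while Ces2c was at 20.2 to 21.2% in EPS replicates 2 to 4 and 7.01% in EPS replicate 1.

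The sum of Ugt1a6a, Ugt1a6b and Ugt1a7c does not depend on how reads were split among them. It was 2.39, 2.53 and 3.8 CPM in the control libraries and 6.19, 22.2, 14.3 and 14.2 CPM in the EPS libraries. The lowest EPS library was thus above the highest control library. The means were 2.91 ± 0.776 CPM (SD, n = 3) and 14.2 ± 6.54 CPM (SD, n = 4), a ratio of 4.9, which ranged from 3.98 without EPS replicate 2 to 5.82 without EPS replicate 1 in the settings computed.

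Across the EPS libraries the genes did not keep 1 order. All 5 members that separated the groups were lowest in EPS replicate 1, and 4 of them (Ces2c and the 3 Ugt1a genes) were highest in EPS replicate 2, while Ephx1 was highest in EPS replicate 4. The proliferation marker Mki67 was at 131, 103 and 90 CPM in the control and 391, 124, 205 and 452 CPM in the EPS libraries. EPS replicate 2, the highest for Ugt1a6a, was the lowest EPS library for Mki67, while EPS replicate 4 was the highest for both Ephx1 and Mki67. The 4 proliferating myoblast markers summed to 186 to 278 CPM in the control and 235 to 736 CPM in the EPS group. Mki67 and Top2a made up most of that sum, while the means of the myoblast genes Pax7 (20.2 and 18.1 CPM) and Myf5 (6.11 and 7.41 CPM) lay close together, and the groups overlapped for all 4. Of the 8 myotube markers, 7 had a lower mean in the EPS group, 0 were called and all overlapped. They summed to 10022 to 14783 CPM in the control and 8229 to 11222 CPM in the EPS libraries. Without control replicate 4 the control sums were 10022 to 13159 CPM. Myog, the myogenic factor with the ratio furthest from 1, was at 473, 565 and 1790 CPM in the control and 281, 605, 406 and 278 CPM in the EPS libraries, a ratio of 0.416, or 0.756 without control replicate 4. The 4 macrophage markers summed to 0.641 to 1.08 CPM in the control and 1.26 to 2.76 CPM in the EPS group. The part of these differences, and of Cdh17, in the levels of the members was not tested.

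Set per kilobase of the longest coding transcript, the levels of the members spanned a wide range. In the control group Ugdh led with 71.9 ± 19.2 CPM per kb (SD, n = 3), followed by Ephx1 with 42.7 ± 5.06, Ces2g with 2.76 ± 1.43 and Ugt1a6a with 1.18 ± 0.423. The ranges of Ugdh and Ephx1 did not overlap, at 59.5 to 94 and 37.5 to 47.6 CPM per kb. In the EPS group Ephx1 had 102 ± 28.6 CPM per kb (SD, n = 4) and Ugdh 84.2 ± 14.2, which differed by less than the spread of Ephx1. Ugt1a6a, at 2.39 to 8.31 CPM per kb, was above Ces2g, at 1.49 to 2.38. Ces2c, Ugt1a6b and Ugt1a7c had the lowest levels above Ces2e and Ces1d, with EPS means of 0.589 ± 0.254, 0.481 ± 0.257 and 0.233 ± 0.127 CPM per kb, and each differed from the next by less than the SD of the higher one. Their control means were 0.0907, 0.0509 and 0.0243 CPM per kb, or 0.136, 0.0764 and 0.0364 without control replicate 4.

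Around the transferases, no other gene of the route to glucuronides passed the thresholds. Nothing is read from this contrast with Ugt1a6a, which was chosen partly by its measured difference. Of the 6 genes of UDP-glucuronic acid supply and glucuronide removal, 0 were called in either direction, with a median log2 fold change of 0.12 against 0.041 over all tested genes. Pgm2, a phosphoglucomutase, had 80.4, 102 and 88.2 CPM in the control and 153, 187, 177 and 129 CPM in the EPS libraries. All of its EPS libraries were higher, with a log2 fold change of 0.83 (standard error 0.17) and a limma adjusted p of 0.107. Ugp2, which makes UDP-glucose, had 91.5, 151 and 102 CPM in the control and 81.9, 120, 75 and 92.2 CPM in the EPS libraries, which overlapped. The transporter Slc35d1, which carries UDP-glucuronic acid into the endoplasmic reticulum, had 12.1 to 14.4 CPM in the control and 11.3 to 14 CPM in the EPS group. Gusb, the lysosomal enzyme that removes glucuronic acid, had 52.8 to 54.2 CPM and 60.7 to 72.1 CPM, a difference of 0.28 on the log2 scale (standard error 0.13, limma adjusted p = 0.455). Ugp2, Slc35d1 and Gusb are named for their place in the route and were picked after their values were seen.

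**Figure D3:**
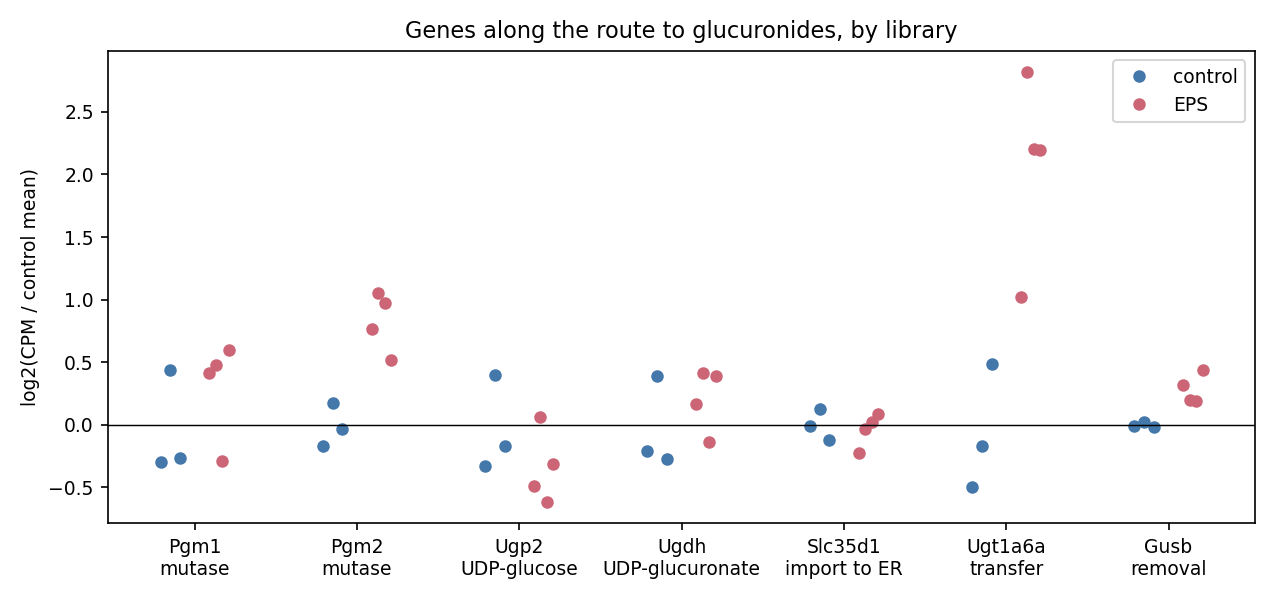
Level of each gene in each library relative to its control mean (log2, vertical axis), in the order of the route from glucose phosphate to glucuronide and its removal, for the control (blue) and EPS (red) groups. Ugt1a6a, which was chosen with this contrast known, had the widest separation of the genes drawn. All but Ugt1a6a, Pgm2 and Gusb overlapped.

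In the other lists around the members, no gene passed both thresholds. Over 82 related genes, 52 could be tested and 0 were called higher or lower, with a median log2 fold change of 0.033. In limma, 0 had an adjusted p under 0.05 and 5 an unadjusted p under 0.05, among them Nceh1, Pgm2, Sult2b1 and Ahr. These 5 are 9.62% of the 52, beside 11.6% of all tested genes. EdgeR gave 0 at the adjusted threshold and DESeq2 1, Pgm2. All EPS libraries were above all control libraries in 7 of the 52, among them these 4 named genes, Gusb and Chpf2. That is 13.5%, beside 7.76% of all tested genes. The lists of related genes were drawn from family and pathway membership.

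Of 16 other carboxylesterases, 10 had 0 reads everywhere and 6 were tested, with log2 fold changes from -0.10 to 0.23. Ces1g, the highest of them by the mean over the 7 libraries, stayed at 0.274 to 1.81 CPM. Ces1a reached 2.17 CPM in control replicate 4 and had at most 0.828 CPM in the other libraries. Of the other esterases, Nceh1, which releases cholesterol from its esters, was highest and had 21.3, 17.6 and 11.3 CPM in the control and 24.6, 32.7, 30.1 and 26.2 CPM in the EPS libraries (log2 fold change 0.76 with a standard error of 0.23, limma adjusted p = 0.24). Ache, acetylcholinesterase, had a log2 fold change of -1.01 and overlapping groups. Of 4 other epoxide hydrolases, the highest was Lta4h, the leukotriene A4 hydrolase, at 54.7 to 95.6 CPM in the control and 72.2 to 94.8 CPM in the EPS group. The other 3, Ephx2, Ephx3 and Ephx4, had at most 15 reads in any library. Ephx2, which acts on fatty acid epoxides, had group means of 0.217 ± 0.189 CPM (control, SD, n = 3) and 0.504 ± 0.213 CPM (EPS, SD, n = 4). Its ratio of 2.32 was close to the 2.38 of Ephx1, but its groups overlapped, and without control replicate 4, where it had 0 reads, the ratio was 1.55.

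Of 19 other UDP-glycosyltransferases, 18 were listed in the files, Ugt1a8 was missing, and 13 had 0 reads in every library. The highest, Ugt8a, which makes galactosylceramide, had at most 0.722 CPM. Ugt1a6a was thus the only transferase of this family above 2 CPM in any library. The enzymes that build glycosaminoglycans from the same donor had a median log2 fold change of -0.077 over 11 tested genes. Their highest, Ext1, which extends heparan sulfate, had 288, 289 and 220 CPM in the control and 314, 215, 226 and 210 CPM in the EPS libraries.

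Sulfation is the other main route of conjugation. Papss1, which makes the sulfate donor, had 48 to 69.7 CPM in the control and 51.3 to 70.7 CPM in the EPS group. The transferase Sult2b1 had 1.4, 2.89 and 0.452 CPM in the control and 4.47, 5.02, 3.11 and 3.08 CPM in the EPS libraries, a difference of 1.02 on the log2 scale (standard error 0.34, limma adjusted p = 0.283). Among 10 receptors and factors known to act on the members, 0 were called. Nfe2l2, which encodes NRF2, was the highest and overlapped, at 81.5 to 178 CPM in the control and 104 to 208 CPM in the EPS group. Ahr had 66.9, 87.9 and 62.9 CPM in the control and 115, 114, 88.6 and 100 CPM in the EPS libraries, a difference of 0.53 on the log2 scale (standard error 0.17, limma adjusted p = 0.26). Sult2b1, Ahr and Ache were singled out after their values were seen.

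**Figure D4:**
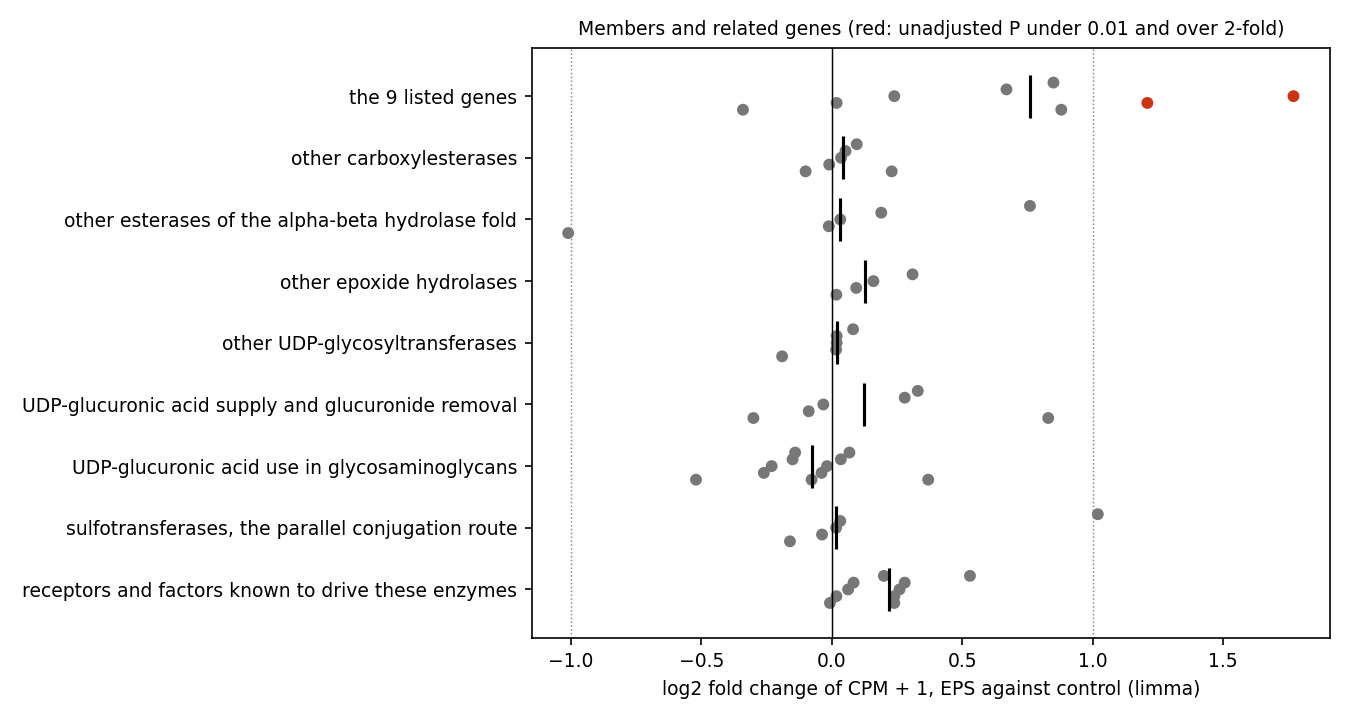
Log2 fold change of CPM + 1, EPS against control, of each tested gene (points, red where unadjusted P was under 0.01 and the change over 2-fold) for the members and each related list, with the list median as a bar and dotted lines at 2-fold. Ephx1 and Ugt1a6a, members chosen with this contrast known, are the 2 red points. The medians of the related lists lie between -0.077 and 0.22.

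The genes most like each abundant member over the 7 libraries were looked up among 12256 genes with a mean of at least 1 CPM, by Pearson r of log2(CPM + 1). Ephx1 was followed most closely by Pir (r = 0.993), Sod1 (0.991) and Ankrd6 (0.988). Ugt1a6a was followed by Foxq1 (0.989), Slc11a1 (0.984) and Tsku (0.982), a different trio. Ugdh was nearest to BC017643 (0.992), Med27 (0.987) and Rhox10 (0.983), and Ces2g to Hif1a (0.98), Cav1 (0.96) and Col1a2 (0.96). Foxq1, at 4.08, 5.36 and 9.67 CPM in the control and 9.54, 32.3, 21.4 and 20 CPM in the EPS libraries, shared with Ugt1a6a its highest library. With 7 points that share the group difference, the library totals and the selection of the highest of 12256 values, these r describe the libraries and were given no p-value.

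The bases before the start of the genes were read because AHR and NRF2 are known to act on several of them through short DNA motifs. RefSeq (GRCm38.p6) gave a start for 7 of the 9 members, and Ces1d and Ugt1a6b had no entry. In the 250 bases before each start, the AHR core GCGTG and the antioxidant response element core TGACNNNGC were searched on both strands. Over all 32851 such sequences, 28.2% held the first and 10.2% the second. Ugdh held 3 matches of GCGTG and 2 of TGACNNNGC. A plus-strand GCGTG, 90 to 94 bases before the start, lies inside the minus-strand match of TGACNNNGC, 86 to 94 bases before it. The other 6 members, Ephx1, Ugt1a6a, Ugt1a7c, Ces2c, Ces2e and Ces2g, had 0 matches of either, which says only that these letters are absent from this window. Shown, 5′ to 3′ on the strand of the gene, are Ugdh, which overlapped between the groups and holds the matches (capitals, in either direction), and the 3 genes Ephx1, Ugt1a6a and Ces2c, which separated the groups and hold none. They lie at chr5:65435843-65436092 (minus), chr1:181017570-181017819 (minus), chr1:88134559-88134808 (plus) and chr8:104846818-104847067 (plus).
Ugdh: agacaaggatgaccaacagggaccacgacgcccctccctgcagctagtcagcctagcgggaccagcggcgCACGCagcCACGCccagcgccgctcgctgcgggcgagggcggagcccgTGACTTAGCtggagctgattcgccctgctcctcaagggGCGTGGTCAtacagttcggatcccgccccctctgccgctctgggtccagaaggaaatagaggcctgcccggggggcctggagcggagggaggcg
Ephx1: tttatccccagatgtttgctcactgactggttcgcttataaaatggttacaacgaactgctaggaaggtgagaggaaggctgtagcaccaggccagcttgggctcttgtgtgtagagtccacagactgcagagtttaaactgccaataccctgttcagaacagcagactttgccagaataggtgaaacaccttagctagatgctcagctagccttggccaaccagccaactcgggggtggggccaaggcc
Ugt1a6a: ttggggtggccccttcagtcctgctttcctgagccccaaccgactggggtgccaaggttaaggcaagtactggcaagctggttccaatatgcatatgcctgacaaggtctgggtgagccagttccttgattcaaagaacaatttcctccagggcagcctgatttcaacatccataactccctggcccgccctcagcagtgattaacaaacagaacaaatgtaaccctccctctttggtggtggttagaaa
Ces2c: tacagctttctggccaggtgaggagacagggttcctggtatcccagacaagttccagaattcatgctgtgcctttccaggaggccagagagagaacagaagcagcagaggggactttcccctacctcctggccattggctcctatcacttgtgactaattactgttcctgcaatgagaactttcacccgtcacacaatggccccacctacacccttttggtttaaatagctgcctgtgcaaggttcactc
The window of Ugdh is 69.2% G and C with 22 CpG pairs, and the other 3 are 51.2% G and C with 1 to 3. The RefSeq starts of Ephx1 and Ugdh lie inside the genes as GENCODE M21 draws them. So do the whole 250 bases shown for Ephx1, and for Ugdh the 107 bases nearest the start, which hold the overlapping pair of matches. Binding was not measured here, and a match is no evidence of a site in use.

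The fold change of the low genes depended on the scale on which it was computed. With pseudocounts of 0.1 and 0.5, Ces2c had log2 fold changes of 2.33 and 1.27, Ugt1a6b of 2.57 and 1.34, and Ugt1a7c of 2.22 and 1.06, against 0.85, 0.88 and 0.67 with a pseudocount of 1. On recovered reads, edgeR gave 2.62, 3.12 and 3.13 and DESeq2 2.65, 3.17 and 3.21. Values against controls at or near 0 thus depended on the pseudocount, and the part of each tool's prior was not tested. Ephx1, whose libraries each held 1120 reads or more, stayed between 1.14 and 1.22 under these same settings. Without control replicate 4, Ces2c, Ugt1a6b and Ugt1a7c had log2(CPM + 1) fold changes of 0.74, 0.81 and 0.62.

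**Figure D5:**
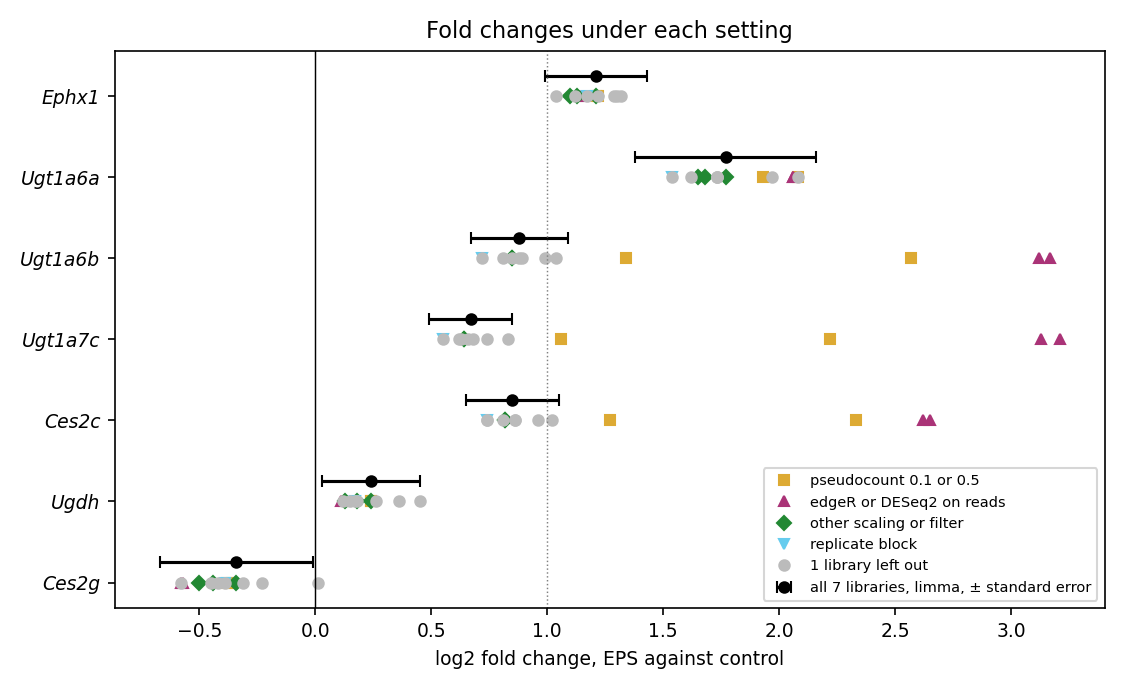
Log2 fold change, EPS against control, of 7 members with all 7 libraries in limma (black, bar: standard error) and under each alternative (coloured points). Ephx1 stayed between 1.04 and 1.32, while Ces2c, Ugt1a6b and Ugt1a7c moved from under 1 to between 2.22 and 3.21 with a pseudocount of 0.1 or a count model.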

How the data were processed

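Poly(A) RNA of 7 C2C12 myotube libraries was sequenced as paired reads of 100 bp from directional libraries. Per the submitters' processing notes, STAR 2.5.4b was used with the GRCm38 build. What the authors deposited is a linear CPM for each gene symbol and library. The read counter, its annotation, strand setting and handling of multiply mapped reads are not given in the sources used here. Groups and replicate numbers came from the labels, and 0 columns were left unused. Depth was 16616917 to 22120641 reads per library.

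Whole reads were recovered from the CPM (100% of values within 0.1 read of a whole number). Genes above 0 in any library were tested on log2(CPM + 1) with limma 3.58.1 in R 4.3.3 (mean-variance trend, two-sided, Benjamini-Hochberg over all genes). Because the unit is CPM, edgeR 4.0.16 and DESeq2 1.42.0 on recovered reads were alternatives. Others were quantile and median-of-ratios scaling, a filter on genes under a mean of 1 CPM, pseudocounts of 0.1 and 0.5, a P-value threshold of 0.001, a replicate block and leaving out each library. The fits were tested on simulated data in which only genes with a mean of at least 1 CPM were changed. That test therefore does not cover genes as low as Ces2c, Ugt1a6b and Ugt1a7c.

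The members and lists were chosen with earlier results of these data known. Named are all 9 members and, of each related list, genes past the thresholds and the gene with the highest mean over all libraries. Also named are the 3 genes most like each member with a mean of at least 1 CPM. Exceptions were named for their place in a route, shared sequence or a value already seen. They are Ugp2, Slc35d1, Gusb, Chpf2, Ahr, Sult2b1, Ache, Myog, Pax7, Myf5, Top2a, Ephx2, Ephx3, Ephx4, Ces1a and Ces2d-ps. The values of 1 related gene are not reported here, while counts over its list include it. Markers named are the highest and those at 0, and Mymk and Adgre1 were found under the older symbols Tmem8c and Emr1. Coordinates and transcripts are those of GENCODE M21, and a model that reads through from Ugt1a7c into other Ugt1a exons was left out.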

Additional observations from a re-analysis of the deposited data

Results flagged for a closer look

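Ext1, a heparan sulfate enzyme that uses the same sugar donor as the glucuronosyltransferases, stood apart in EPS replicate 1, at 314 CPM, while the other 3 EPS libraries lay between 210 and 226 CPM. The gap to the nearest library was large against the whole range of the group (Dixon's criterion). Control replicates 1 and 3 were at 288 and 289 CPM. In all, 17 named genes were entered, but Ces1d and Ces2e, with at most 3 reads in every EPS library, were not checked. Chance alone exceeds the criterion in about 1 of 20 groups.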

How the results depend on the processing

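Over all tested genes, 269 passed the thresholds. The number was 601 and 372 with pseudocounts of 0.1 and 0.5, 629 in edgeR and 585 in DESeq2. It was 161 with the replicate number as a replicate block and 106 at a P-value threshold of 0.001. With 1 library left out it was 209 to 325. Of the members, 2 were called, against 5 with pseudocounts of 0.1 and 0.5, in edgeR and in DESeq2 (the added genes were Ces2c, Ugt1a6b and Ugt1a7c), 1 at a P-value threshold of 0.001, and 2 to 4 with 1 library left out, 4 being without EPS replicate 1, which adds Ces2c and Ugt1a6b. Related genes called higher were 0, 1 with a minimum mean of 1 CPM and 0 to 1 with 1 library left out. That gene was Sult2b1 in both cases, without control replicate 3 in the latter (log2 fold change 1.38). Related genes called lower were 0, and 1 in edgeR, Ache, at -1.35.

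Ephx1 and Ugt1a6a were called under each alternative run except Ugt1a6a at a P-value threshold of 0.001, and no called value changed sign. Same-numbered libraries deviated together for replicate 1 (r = 0.25 across genes) but not for replicates 3 (-0.45) and 4 (0.068), so a paired design was not established. The replicate block rests on 3 pairs, and in it 2 members were called. Over genes at 1 CPM or more on average, the middle log2 fold change was 0.10 as deposited, 0.0052 after quantile and -0.0048 after median-of-ratios scaling, under which Ephx1 was at 1.13 and 1.10. Depth limits Ces2c, Ugt1a6b and Ugt1a7c, which rest on 9, 6 and 4 control reads.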
